A study of Mus musculus with 37 samples.

Results

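Dopamine acts on 5 receptors and is packaged, taken up and broken down by a small set of further proteins. Their genes are described here by the openness of their chromatin in nuclei of the mouse nucleus accumbens. The 9 genes are the dopamine receptor genes Drd1, Drd5, Drd2, Drd3 and Drd4, the plasma membrane dopamine transporter gene Slc6a3, the vesicular monoamine transporter gene Slc18a2 and the monoamine oxidase genes Maoa and Maob. They were chosen by name, from 21887 protein-coding genes of the annotation, with earlier results of these data known. For each gene, raw counts were summed over all regions that overlap its body or the 2 kb on either side. This gave 46 of 205848 regions in the table of PV nuclei at 60 min, 32 of 178637 in the SST table and 40 of 171130 in the table of PV nuclei at 24 h. None of these regions counted for another protein-coding gene.

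The assay was ATAC-seq, in which the Tn5 transposase cuts accessible DNA, so that the count of a region follows its openness. All mice were 60 to 210 days old and compound heterozygous for a Cre-dependent Sun1-GFP tag of the nuclear envelope (Rosa-LSL-Sun1-GFP) and for Pvalb-IRES-Cre or Sst-IRES-Cre, so the controls carry both alleles too. Cre therefore tags cells that have expressed Pvalb (parvalbumin, PV) or Sst (somatostatin, SST). An antibody to GFP captured the tagged nuclei (IP), and the nuclei it left in the supernatant are the unbound fraction (UF). A library came from both accumbens samples of 1 mouse. The isolation buffers of every group held sodium butyrate, which inhibits histone deacetylases. PV mice got 1 injection of saline or of 3 mg/kg amphetamine (AMPH) 60 min before harvest, with 4 IP and 4 UF libraries per treatment. Other PV mice were taken 24 h after the last of 6 daily injections of saline or AMPH, with 3 IP and 4 UF libraries after saline and 4 IP and 4 UF libraries after AMPH. The dose of AMPH is not given in the labels of those libraries. SST mice gave 3 IP and 3 UF libraries with saline, and the labels give no time for them.

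The dopamine receptors are G protein coupled receptors. The D1 type (Drd1, Drd5) raises cAMP through Gs and Golf proteins, and the D2 type (Drd2, Drd3, Drd4) lowers it through Gi proteins. In the accumbens, Drd1 and Drd2 mark the direct and the indirect class of spiny projection neurons (SPNs), the most common neurons of the tissue, while cholinergic neurons carry Drd2 and Drd5. Slc6a3 and Slc18a2 are genes of dopamine neurons, whose cell bodies lie in the midbrain, so that only their axons reach the accumbens. Amphetamine enters through Slc6a3 and acts on Slc18a2 to release dopamine. Maoa and Maob encode the mitochondrial enzymes that oxidise monoamines.

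The promoters of 4 members are shown so that the start of each gene can be read beside its values. Each line gives the 250 bases before the gene's start from RefSeq on GRCm38.p6, the assembly of mm10, 5′ to 3′ on the gene's strand, with capitals for bases that a region of the named table covers. The Drd2 (chr9:49340153-49340402) and Drd3 (chr16:43761971-43762220) promoters belong to the receptors that differed most in PV nuclei and are marked with the 60 min PV table, as is Maoa (chrX:16619448-16619697), the most open member. The Drd5 promoter (chr5:38319259-38319508) is marked with the SST table, where it was called. All 4 genes lie on the plus strand. For Drd3 this is RefSeq's promoter start, which lies inside the annotated gene body that begins at chr16:43754015. A region of the 60 min PV table lies near that annotated beginning, at chr16:43754098-43754297, outside the window shown.
Drd2: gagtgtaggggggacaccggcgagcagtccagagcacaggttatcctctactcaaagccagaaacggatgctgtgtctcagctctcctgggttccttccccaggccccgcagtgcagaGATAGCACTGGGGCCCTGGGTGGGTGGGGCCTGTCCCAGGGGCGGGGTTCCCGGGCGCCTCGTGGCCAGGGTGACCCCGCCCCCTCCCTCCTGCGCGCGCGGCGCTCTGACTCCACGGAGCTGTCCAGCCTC
Drd3: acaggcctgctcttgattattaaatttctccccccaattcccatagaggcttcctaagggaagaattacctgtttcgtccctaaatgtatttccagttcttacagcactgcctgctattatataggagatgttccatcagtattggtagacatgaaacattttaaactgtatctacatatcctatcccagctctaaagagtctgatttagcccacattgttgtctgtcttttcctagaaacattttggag
Drd5: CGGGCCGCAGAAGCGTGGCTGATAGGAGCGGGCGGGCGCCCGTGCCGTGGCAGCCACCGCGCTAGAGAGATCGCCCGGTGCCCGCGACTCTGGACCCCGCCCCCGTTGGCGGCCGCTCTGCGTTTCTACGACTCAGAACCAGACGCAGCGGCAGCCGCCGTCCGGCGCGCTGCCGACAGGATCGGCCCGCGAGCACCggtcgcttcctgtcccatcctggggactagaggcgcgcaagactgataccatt
Maoa: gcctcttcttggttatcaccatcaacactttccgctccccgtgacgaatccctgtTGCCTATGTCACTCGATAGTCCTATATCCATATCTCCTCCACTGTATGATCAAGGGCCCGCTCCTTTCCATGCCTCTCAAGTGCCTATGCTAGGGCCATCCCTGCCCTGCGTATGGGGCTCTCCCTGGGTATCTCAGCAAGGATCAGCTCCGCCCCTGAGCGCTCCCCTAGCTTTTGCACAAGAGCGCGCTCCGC
Of the 250 bases, 132 lay in a region for Drd2, 0 for Drd3, 197 for Drd5 and 195 for Maoa. The GC content was 68.8% for Drd2, 39.2% for Drd3, 71.2% for Drd5 and 56.8% for Maoa, beside a median of 52.4% over 32851 promoters. Drd2 held 15 CpG, Drd3 held 1, Drd5 held 35 and Maoa held 11, where the median promoter held 6. The letters GGGCGG, read on both strands, occurred in 32.7% of all promoters of this length, with 2 matches in Drd2, 2 in Drd5, 1 in Maoa and 0 in Drd3. The letters TGACGTCA occurred in 1.55% of promoters and TATAAA in 12.4%, and neither was present in these windows of the members. The start of Slc18a2 was covered by no region of any table, and the start of Slc6a3 by none of the 60 min PV table.

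The sorts carried the gene they were made with. At 60 min after saline, Pvalb had 78.4 ± 22.3 CPM (SD, n = 4) in PV IP against 9.2 ± 1.34 CPM (n = 4) in UF. Sst had 16.3 ± 3.41 CPM (n = 3) in SST IP against 1.51 ± 0.41 CPM (n = 3) in UF. CPM are counts per 1000000 counts of a library, scaled to equal library size by TMM, within each table and separately for genes and for single regions. The 3 tables hold different regions, so a level in one table is only set beside a level in another. Libraries held 0.651 to 15.1 M counts (M stands for 1000000), and the 24 h table was the shallowest. Differences were tested with edgeR's quasi-likelihood test across all genes or all regions of a table, as log2 of IP over UF or of AMPH over saline with its standard error (SE). Called means a Benjamini-Hochberg adjusted p under 0.05 in that test, and all adjusted p-values below come from it. In bulk fractions, fewer cells of a type and less signal per cell cannot be told apart.

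All regions are 200 bp wide, so the mean CPM per region compares members. Maoa was highest and Drd1 second in all 10 groups. In UF of saline PV mice at 60 min, Maoa had 17.3 CPM per region, Drd1 6.85, Drd2 5.90, Drd3 4.93 and Drd4 3.20. Below them came Slc18a2 at 2.29, Slc6a3 at 2.11, Maob at 1.42 and Drd5 at 1.36. In that order the library ranges of Drd1 and Drd2, Drd4 and Slc18a2, Slc18a2 and Slc6a3, and Maob and Drd5 overlapped, and those of the other neighbouring pairs did not.

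In PV IP of the same mice, Maoa again led with 14.9 CPM per region and Drd1 followed with 5.46. Next came Drd4 at 2.81, Maob at 2.65, Slc18a2 at 2.49, Drd2 at 2.1, Drd3 at 1.97, Drd5 at 1.38 and Slc6a3 at 0.908. Only Maoa stood clear of its neighbour there, and all other neighbouring pairs overlapped between libraries. In SST IP the order after Maoa (32.6 CPM per region) and Drd1 (7.84) was Drd5 at 6.27, Slc6a3 at 4.91, Drd3 at 4.64, Slc18a2 at 4.41, Drd2 at 3.47, Maob at 2.28 and Drd4 at 1.38. Maoa and Drd1, and Slc18a2 and Drd2, were the neighbouring pairs without overlap. Drd5 was the third there and last of the 9 in SST UF, at 2.39 CPM per region. At 24 h the saline UF libraries had 11.9 CPM per region for Maoa, 6.53 for Drd1, 6.46 for Drd2 and 0.593 for Maob, and saline IP had 9.87, 5.6, 2.98 and 3.92.

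**Figure D1:**
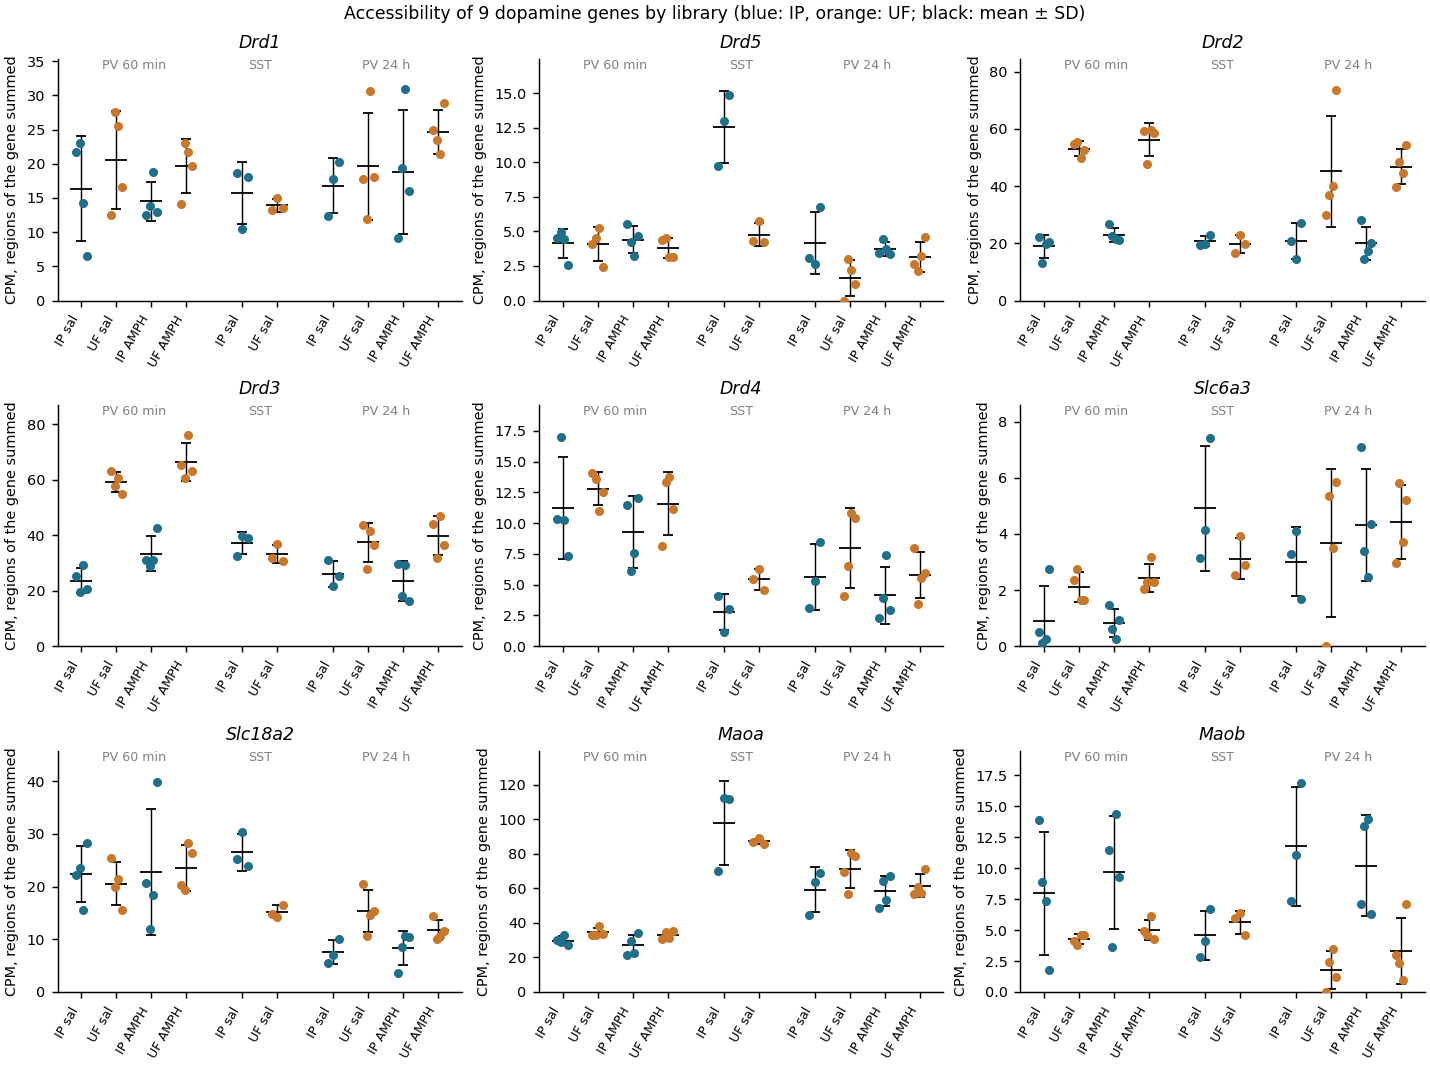
CPM summed over the regions of each of the 9 genes, 1 point per library, for the 10 groups of the 3 tables, each scaled on its own. Drd2 and Drd3 of saline PV libraries at 60 min separate by fraction, with Drd2 at 13.2 to 22.2 CPM in IP and 49.7 to 55.5 CPM in UF, whereas SST libraries overlap for both.

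Among the 9 genes in saline PV mice at 60 min, the D2-type receptors Drd2 and Drd3 were less open in PV IP than in UF and no gene was more open. All 9 passed the filter on low counts, and 2 were called, both lower, where 25.0% of the 16957 genes tested were called. Of their 46 regions, 41 were tested, with 4 called higher and 13 called lower, beside 44.8% of all tested regions.

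Drd2, the D2 receptor gene of indirect pathway SPNs and cholinergic neurons, had 22.2, 13.2, 19.7 and 20.6 CPM in the 4 saline PV IP libraries and 54.6, 55.5, 49.7 and 52.8 CPM in UF. Every IP library lay below every UF library. The log2 difference was −1.50 ± 0.17 (adjusted p = 4.6e-05), which is 0.353 of the UF level. Drd3, the D3 receptor gene, had 25.2, 19.4, 29.2 and 20.7 CPM in IP and 63.3, 57.8, 60.6 and 54.8 CPM in UF. Again no library of one fraction reached the range of the other. Its log2 difference was −1.32 ± 0.15 (adjusted p = 6.0e-05).

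The Drd2 regions called lower lay in the gene body and past its end, and the start region was not called. No test compared the start with the other sites. The start region had 4.41, 2.37, 7.49 and 8.7 CPM in IP and 5.75, 5.93, 8.03 and 8.05 CPM in UF, which overlap (log2 −0.34 ± 0.34, adjusted p = 0.45). The region 45.9 kb into the gene, at chr9:49386183-49386382, held 23.8% of the gene's counts and had 3.01, 1.55, 3.11 and 1.95 CPM in IP against 11.3, 12.1, 8.74 and 13.9 CPM in UF. Its log2 difference was −2.32 ± 0.31 (adjusted p = 2.9e-05), with no overlap. The regions at 39.7, 40.5 and 49.3 kb were lower by log2 −3.14 ± 0.56, −2.51 ± 0.39 and −2.33 ± 0.35, and that at 69.1 kb, past the annotated end, by −2.49 ± 0.43. Together, 5 of the 8 tested Drd2 regions were called lower and 0 higher. The remaining tested regions gave −0.59 ± 0.39 at 68.3 kb and 1.02 ± 0.49 at 20.3 kb (adjusted p = 0.1). When only regions within 1 kb of the gene ends were summed, the Drd2 difference was −0.39 (adjusted p = 0.327) and no longer called.

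Drd3 had more tested regions than Drd2, and more of them were called lower. Of its 12 regions, 11 were tested, 7 were called lower and 0 higher. The region 65.5 kb from the start and past the annotated end, at chr16:43827594-43827793, held 27.9% of the gene's counts. It had 4.01, 1.55, 3.34 and 4.65 CPM in IP and 19.9, 13.4, 14.3 and 16 CPM in UF, without overlap (log2 −2.31 ± 0.31, adjusted p = 3.1e-05). The region at 47.6 kb had 0.602, 0.413, 0 and 0.150 CPM in IP and 2.3, 2.32, 1.50 and 3.75 CPM in UF, again without overlap (log2 −3.17 ± 0.62, adjusted p = 0.00057). Its IP values rest on few counts per library, so the size of that difference is uncertain. Other called regions lay at −6.6, 1.3, 14.6, 40.3 and 50.7 kb, with log2 differences from −2.3 to −1.06. The calls at −6.6 and 50.7 kb were lost under several other settings and that at 14.6 kb without UF replicate 4. Drd3 distances are counted from RefSeq's promoter start, which lies inside the annotated gene body. The regions at 28.1 and 38.1 kb were not called (log2 0.88 ± 0.55 and −0.62 ± 0.27), and the one at 38.1 kb was called with the replicate block (−0.63, adjusted p = 0.047).

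**Figure D2:**
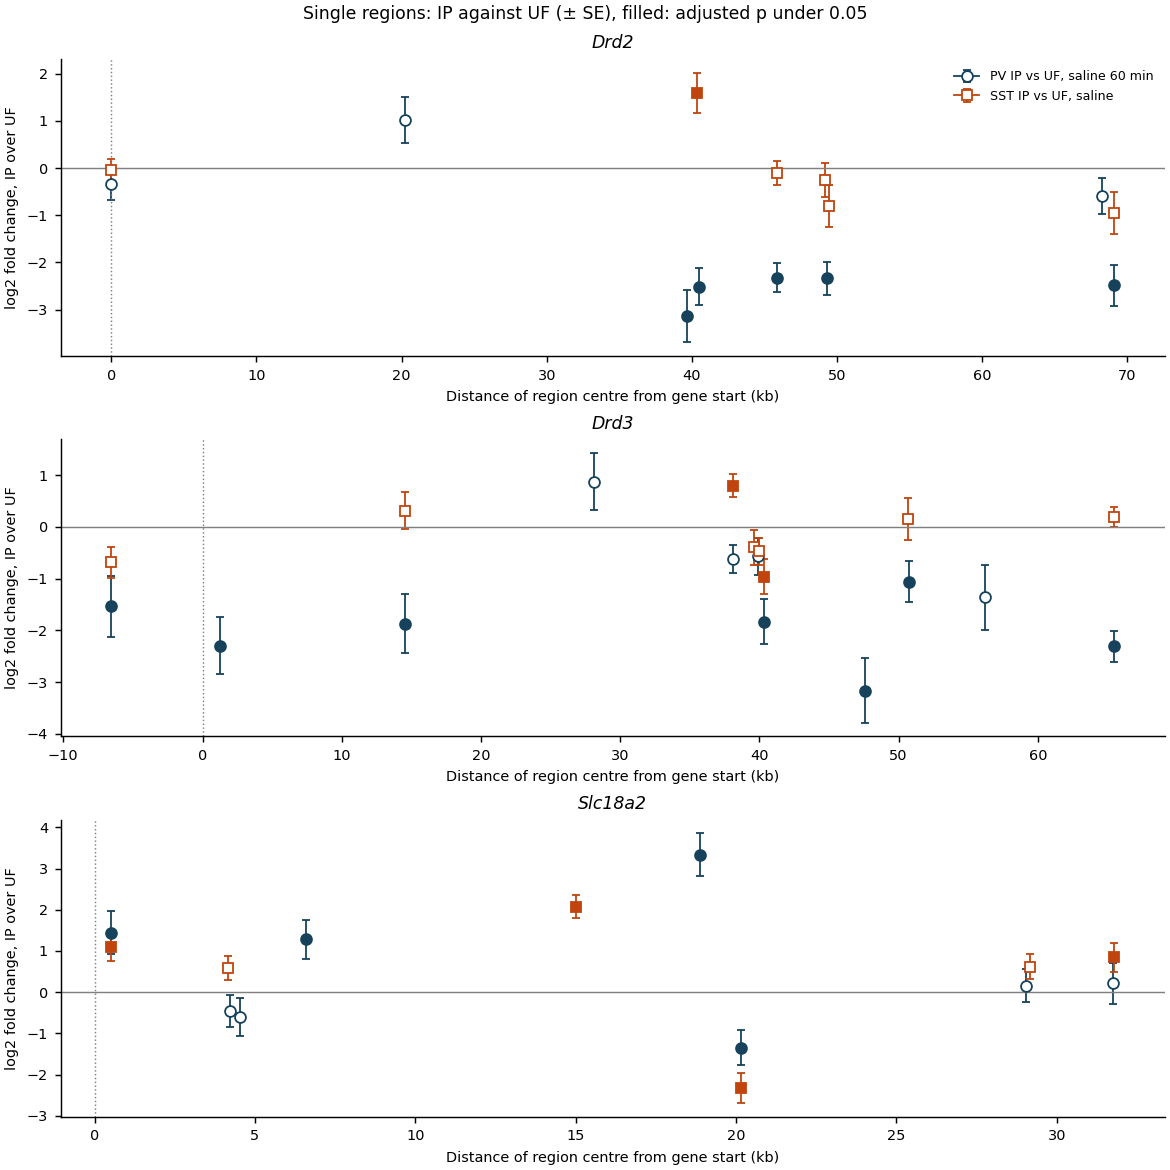
Log2 of IP over UF with its SE for single regions of the members, by distance from the gene's start in kb, in the saline comparisons. In PV nuclei the Drd2 regions from 39.7 to 49.3 kb and the one at 69.1 kb lie between −3.14 and −2.32, while the start region lies at −0.34.

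Drd4, the D4 receptor gene, had 10.3, 17.0, 10.3 and 7.29 CPM in PV IP and 14.0, 13.6, 11 and 12.6 CPM in UF. The fractions overlapped and the log2 difference was −0.17 ± 0.26, with a 95% interval from −0.68 to 0.33. None of its 4 regions was called, and the region 0.25 kb from the start was nearest, at −0.78 ± 0.35 (adjusted p = 0.077).

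The D1-type genes were not called. Drd1, the receptor gene of direct pathway SPNs, had 21.7, 23.1, 14.2 and 6.48 CPM in PV IP and 12.5, 27.6, 25.5 and 16.6 CPM in UF. The IP values spread widely and span the UF values (log2 −0.35 ± 0.34, adjusted p = 0.49). Its start region, with 55.6% of the counts, gave −0.13 ± 0.37, and the region 0.51 kb into the gene gave −0.79 ± 0.34 (adjusted p = 0.066), called with the replicate block (−0.78, adjusted p = 0.03). Drd5, the D5 receptor gene, had 4.54, 4.94, 4.46 and 2.59 CPM in IP and 4.10, 4.54, 5.27 and 2.41 CPM in UF. The ranges nearly coincide, and the log2 difference was 0.01 ± 0.35 with a 95% interval from −0.67 to 0.69.

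Neither transporter gene was called as a whole, but regions inside Slc18a2 moved in opposite directions. Slc18a2, which loads dopamine into vesicles, had 22.2, 23.5, 15.6 and 28.4 CPM in PV IP and 25.5, 19.9, 21.4 and 15.5 CPM in UF (log2 0.13 ± 0.21). The ranges overlap. The region at 18.9 kb had 3.01, 4.02, 1.84 and 6.75 CPM in IP and 0.164, 0.387, 0.551 and 0.221 CPM in UF. Every IP library lay above every UF library there (log2 3.34 ± 0.52, adjusted p = 9.1e-05). The UF values there rest on few counts per library, so the size of that difference is uncertain. The region at 20.1 kb had 1.00, 1.65, 1.73 and 0.600 CPM in IP and 3.29, 1.93, 2.99 and 4.63 CPM in UF. It was lower in IP without overlap (log2 −1.35 ± 0.43, adjusted p = 0.015), a call lost without UF replicate 5. The regions at 0.5 and 6.6 kb were called higher (1.44 ± 0.52 and 1.29 ± 0.48, adjusted p = 0.032 and 0.034), which several other settings did not keep.

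Slc6a3, the dopamine transporter gene, had only 1 region in this table, 31.0 kb from its start. It had 2, 1, 2 and 17 counts in the PV IP libraries, or 0.505, 0.123, 0.248 and 2.75 CPM, against 2.37, 2.74, 1.66 and 1.65 CPM in UF. IP replicate 5 alone reached the UF range, and the log2 difference was −1.26 ± 0.68 (adjusted p = 0.196). Without that library it was −2.98 (adjusted p = 0.0043).

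The oxidase genes were not called. Maoa had 30.0, 29.0, 33.1 and 27.2 CPM in PV IP and 33.2, 33.2, 38.5 and 33.5 CPM in UF. All IP libraries lay just below all UF libraries, yet the log2 difference was small, −0.22 ± 0.14 (adjusted p = 0.289). Maoa and Maob lie on the X chromosome, whose share of all counts was 1.53% to 1.67% in these IP libraries and 1.75% to 1.82% in UF. The part of that share in the Maoa value was not tested. Maob had 13.9, 8.89, 7.31 and 1.78 CPM in IP and 4.10, 3.75, 4.62 and 4.57 CPM in UF. IP replicates 1, 2 and 4 lay above UF and replicate 5 below it (log2 0.87 ± 0.44, adjusted p = 0.163). Without replicate 5 the difference was 1.21 (adjusted p = 0.011). One Maob region, at chrX:16780237-16780436, was called higher, with 6.42, 3.92, 2.07 and 0.600 CPM in IP and 1.31, 0.258, 1.1 and 0.772 CPM in UF (log2 1.90 ± 0.60, adjusted p = 0.015). IP replicate 5 lay inside the UF range there too, and the call was lost without IP replicate 1 or UF replicate 2.

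Levels of other cell types moved with these results. The summed CPM of 5 markers of both SPN classes ran from 418 to 533 in saline PV IP and from 772 to 863 in UF, with 3 of 5 called lower. Of 5 markers of D2-type SPNs, 1 was called lower, and Penk, the enkephalin gene of these cells, gave −0.96 ± 0.19. The 6 endothelial and mural markers ran from 173 to 315 CPM in IP and 103 to 143 CPM in UF, with 4 of 6 called higher. The 6 oligodendrocyte markers ran from 217 to 310 CPM in IP and 427 to 529 CPM in UF. For cholinergic neurons, which carry Drd2, only 3 of the 5 listed markers entered the sum. These 3 ran from 37.7 to 72.1 CPM in IP and 27.5 to 34.3 CPM in UF, opposite to Drd2. In none of these lists was a defining marker at 0. The 5 markers of D1-type SPNs ran from 125 to 176 CPM in IP and 194 to 224 CPM in UF, without overlap. Of these, Tac1 (−0.95 ± 0.26) and Ebf1 (−0.86 ± 0.17) were called lower, while Pdyn, Isl1 and Eya1 were not called. The part of SPN, cholinergic, glial or vascular nuclei in the values of Drd2, Drd3 and Maob was not tested.

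**Figure D3:**
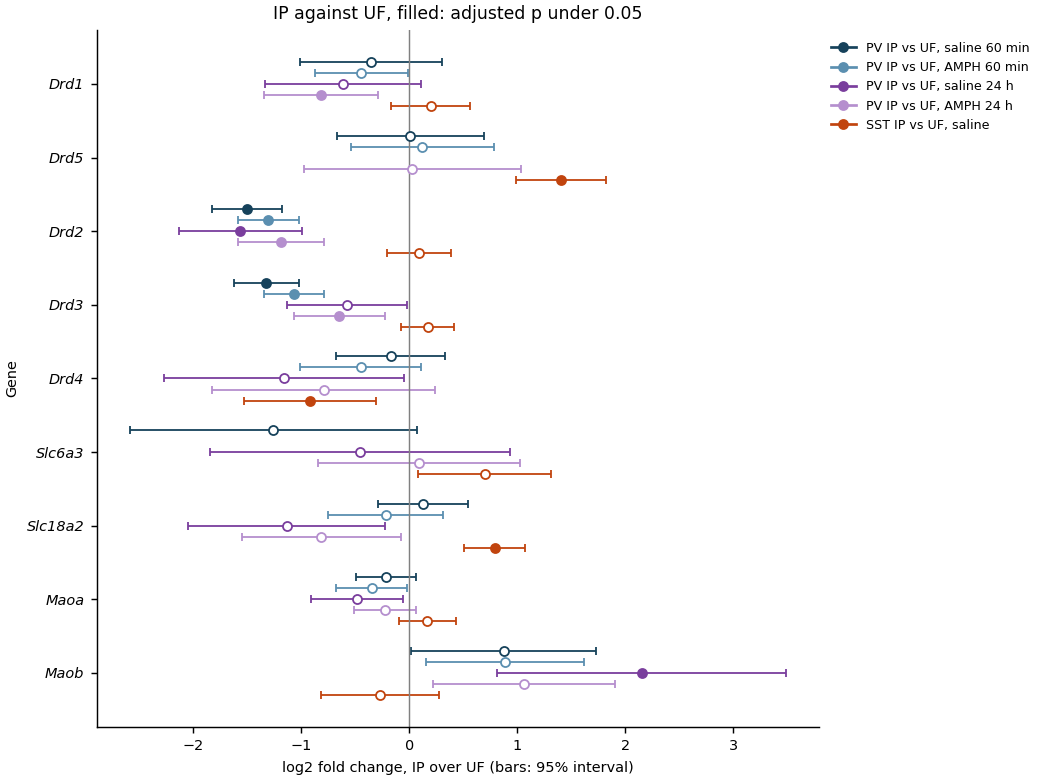
Log2 of IP over UF with its 95% interval for each of the 9 genes in the 5 comparisons of fractions. The intervals are normal multiples of the SE and can leave out 0 for genes that were not called. Drd2 lies below 0 in all 4 PV comparisons, from −1.57 to −1.19, and at 0.09 in SST.

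PV mice given AMPH 60 min before harvest showed the same 2 genes lower in IP. Of the 8 members tested (Slc6a3 did not pass the filter), 0 were called higher and 2 lower, beside 28.2% of all genes. Of 28 member regions tested, 1 was called higher and 11 lower, beside 43.6% of all regions. Drd2 had 26.6, 22.6, 21.4 and 21.3 CPM in IP and 59.2, 47.8, 59.6 and 58.6 CPM in UF, without overlap (log2 −1.30 ± 0.14, adjusted p = 8.3e-06). Drd3 had 31.0, 28.8, 31.0 and 42.6 CPM in IP and 65.3, 60.6, 76.0 and 63.1 CPM in UF, without overlap (log2 −1.07 ± 0.14, adjusted p = 3.3e-05). These libraries are separate mice from the saline ones, and the Drd2 regions at 45.9 and 49.3 kb gave −1.69 ± 0.33 and −2.69 ± 0.43, with the start region again uncalled at −0.52 ± 0.39. The SPN markers ran from 498 to 541 CPM in IP and 767 to 913 CPM in UF.

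The Drd3 region at 28.1 kb was the one member region called higher in AMPH mice. It had 2.33, 5.96, 5.30 and 2.14 CPM in IP and 0.928, 1.22, 0.883 and 1.8 CPM in UF, so all IP libraries were above UF (log2 1.88 ± 0.43, adjusted p = 0.00096). The Drd4 region 0.25 kb from the start had 0.872, 1.01, 1.70 and 1.42 CPM in IP and 3.98, 6.09, 5.01 and 5.41 CPM in UF, all IP libraries being lower (−2.05 ± 0.40, adjusted p = 0.00025). Among the oxidases, Maob gave 0.88 ± 0.37 (adjusted p = 0.084), or 1.30 (adjusted p = 0.0021) without IP replicate 2, and Maoa −0.35 ± 0.17 (adjusted p = 0.13). The Drd1 region at 0.51 kb was called lower (−1.04 ± 0.37, adjusted p = 0.024), a call lost under 2 other settings.

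SST nuclei gave another set of genes. All 9 members were tested, with Drd5 and Slc18a2 called higher in SST IP and Drd4 called lower, beside 58.3% of all genes called in this table. Of their 32 regions, all were tested, with 7 called higher and 4 lower, beside 46.8% of all regions. Drd5 had 9.77, 13.0 and 14.9 CPM in the 3 SST IP libraries and 4.28, 5.77 and 4.27 CPM in UF. Each IP library exceeded each UF library, and the level was 2.65 times that of UF (log2 1.41 ± 0.21, adjusted p = 3.0e-05).

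Both Drd5 regions took part, on either side of its start in the CpG-rich sequence shown above. The one 0.15 kb before the start had 4.07, 6.32 and 6.54 CPM in IP and 2.28, 2.62 and 2.06 CPM in UF (log2 1.28 ± 0.27, adjusted p = 5.6e-05). The one 0.16 kb after it had 3.82, 3.61 and 4.79 CPM in IP and 1.43, 2.31 and 1.79 CPM in UF (1.16 ± 0.30, adjusted p = 0.00092). In both, the fractions did not overlap. In the PV table at 60 min the corresponding regions had 0.722 to 2.01 CPM and 0.802 to 2.89 CPM in saline IP.

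Slc18a2 had 25.2, 30.4 and 23.9 CPM in SST IP and 14.8, 14.2 and 16.6 CPM in UF, without overlap (log2 0.79 ± 0.14, adjusted p = 0.00018). As in PV nuclei after saline at 60 min, its regions differed in direction. In PV mice given AMPH at 60 min, 5 of its 9 regions were tested, with 0 called higher and 1 lower. At 24 h, 1 of its 6 regions was tested in each treatment and was not called. Neither the SST table nor the 24 h table holds a region at the 18.9 kb site. The region at 15 kb had 7.00, 6.17 and 6.32 CPM in IP and 1.52, 1.15 and 1.88 CPM in UF (log2 2.07 ± 0.28, adjusted p = 2.8e-09). That at 20.1 kb had 0.509, 0.903 and 0.980 CPM in IP and 3.54, 3.67 and 5.01 CPM in UF (−2.33 ± 0.36, adjusted p = 1.5e-07). That site was also lower in PV IP after saline and after AMPH, where the log2 difference was −1.35 ± 0.43 and −1.58 ± 0.48, and the call after AMPH was lost without IP replicate 2. The region at 0.5 kb was called higher (1.09 ± 0.34, adjusted p = 0.0063; lost without IP replicate 1), and that at 31.8 kb (0.85 ± 0.36, adjusted p = 0.044) lost its call under 5 other settings.

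Drd4 had 4.10, 1.2 and 3.00 CPM in SST IP and 5.45, 6.26 and 4.57 CPM in UF. The IP libraries were all lower (log2 −0.92 ± 0.31, adjusted p = 0.018), but without IP replicate 2 the difference was −0.61 (adjusted p = 0.0975) and without UF replicate 2 −0.81 (adjusted p = 0.0647). Its regions at 0.26 and 2.0 kb were called lower (−1.21 ± 0.41 and −0.95 ± 0.40). The first lost its call without IP replicate 2, and the other with DESeq2 and without IP replicate 2 or 3 or UF replicate 1 or 2.

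Drd2 and Drd3 did not differ between SST fractions beyond their spread. Drd2 had 19.5, 19.9 and 23.0 CPM in IP and 16.4, 22.8 and 19.9 CPM in UF (log2 0.09 ± 0.15, 95% interval −0.21 to 0.39). Drd3 had 32.5, 39.9 and 39.1 CPM in IP and 31.7, 36.8 and 30.7 CPM in UF (0.17 ± 0.13, 95% interval −0.08 to 0.42). Single sites of both genes were called, with 1 Drd2 region higher and 0 lower, and 1 Drd3 region higher and 1 lower. The Drd2 region at 40.4 kb had 2.67, 1.65 and 2.94 CPM in IP and 0.674, 0.945 and 0.805 CPM in UF, without overlap (1.60 ± 0.42, adjusted p = 0.0012), opposite in sign to the PV region at 40.5 kb (−2.51 ± 0.39). The Drd2 region at 45.9 kb, the strongest in PV UF, had 3.56, 4.21 and 5.45 CPM in SST IP and 3.96, 4.72 and 5.63 CPM in UF (−0.10 ± 0.25). The Drd3 region at 38.1 kb had 6.75, 7.22 and 7.62 CPM in IP and 4.21, 4.72 and 3.49 CPM in UF, without overlap (0.80 ± 0.23, adjusted p = 0.0027). The Drd3 region at 40.4 kb was lower in IP, with 1.91, 1.05 and 1.52 CPM against 2.95, 3.15 and 2.77 CPM in UF (−0.96 ± 0.34, adjusted p = 0.016), a call lost with DESeq2 and without IP replicate 2. It overlaps the 40.3 kb region that was called lower in PV IP. The Drd3 region past the gene end had 7.64, 8.27 and 9.58 CPM in IP and 7.84, 6.82 and 7.69 CPM in UF (0.19 ± 0.20).

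**Figure D4:**
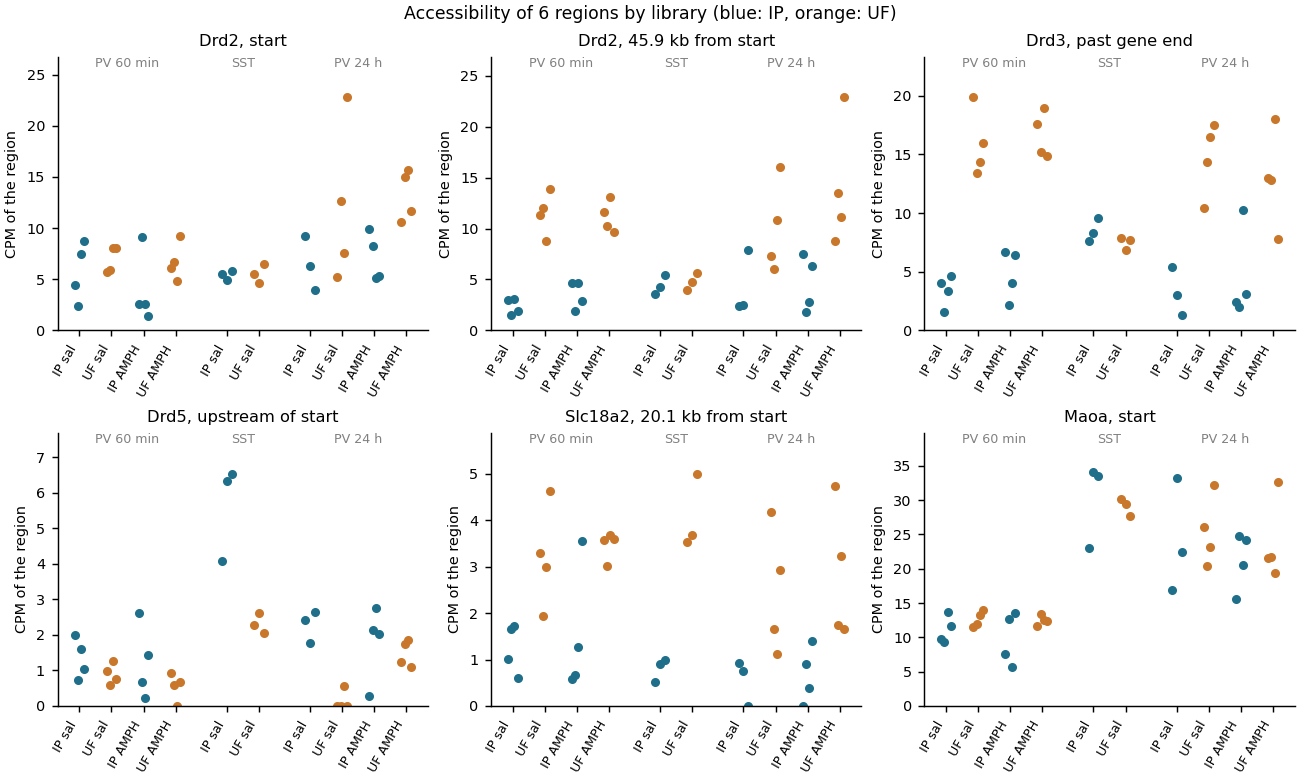
Accessibility of 6 single member regions in CPM, 1 point per library, by group, in the table named in each panel. The Drd2 region at 45.9 kb separates saline PV IP (1.55 to 3.11 CPM) from UF (8.74 to 13.9 CPM) at 60 min, and the Slc18a2 region at 20.1 kb is lower in IP of both PV and SST mice.

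The remaining members were not called in SST nuclei. Drd1 had 18.6, 10.5 and 18.0 CPM in IP and 13.2, 15 and 13.5 CPM in UF (log2 0.20 ± 0.19). Slc6a3, here counted at its start, had 3.15, 4.14 and 7.43 CPM in IP and 2.53, 3.93 and 2.88 CPM in UF (0.70 ± 0.31, adjusted p = 0.064), and it was called without IP replicate 1 (0.96) or UF replicate 2 (0.88). Maoa had 70.0, 112 and 112 CPM in IP and 86.8, 89.0 and 86.0 CPM in UF (0.16 ± 0.14). IP replicate 1 was the low one and also had the lowest X chromosome share of the table (2.12%, against 2.33% to 2.48%), and without it Maoa was called higher (0.36, adjusted p = 3.8e-05), as was Drd3 (0.27, adjusted p = 0.0358). Maob had 2.84, 4.14 and 6.71 CPM in IP and 5.94, 6.38 and 4.57 CPM in UF (−0.27 ± 0.28). Markers of both SPN classes ran from 601 to 626 CPM in SST IP and 541 to 571 CPM in UF, and D1 SPN markers from 304 to 431 CPM in IP and 238 to 258 CPM in UF, with 4 of 5 called higher. D2 SPN markers ran from 103 to 112 CPM in IP and 74.5 to 85.5 CPM in UF, without overlap. Of these, Sp9 (1.19 ± 0.15) and Gpr6 (0.64 ± 0.13) were called higher, while Penk (0.07), Adora2a (−0.13) and Gpr52 (0.41) were not called. For cholinergic neurons, which carry Drd5, 3 of the 5 listed markers were summed. They ran from 18.7 to 23.2 CPM in SST IP and 12.1 to 14.0 CPM in UF, without overlap, and none of the 3 was at 0. The part of these cells in the SST values was not tested.

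The difference between the sorts was tested itself, as log2 of IP over UF in saline PV mice minus that in SST mice, over the counts per gene of both tables. All 9 members were tested, with 0 higher and 3 lower, beside 22.0% of all genes. Drd2 differed by −1.59 ± 0.24 (adjusted p = 0.00018), Drd3 by −1.49 ± 0.21 (adjusted p = 8.6e-05) and Drd5 by −1.39 ± 0.42 (adjusted p = 0.022). Drd2 and Drd3 kept their calls under all 19 other settings, and Drd5 lost its call under 6 of them, among them the use of only those regions that both tables hold (−0.94, adjusted p = 0.133). Slc6a3 (−1.95 ± 0.78, adjusted p = 0.077), Slc18a2 (−0.66 ± 0.28, adjusted p = 0.093) and Maob (1.15 ± 0.59, adjusted p = 0.17) did not pass. All 3 passed without PV IP replicate 5, at −3.68 (adjusted p = 0.0012), −0.80 (adjusted p = 0.041) and 1.48 (adjusted p = 0.020). The Slc6a3 value sets the region inside the gene in the PV table against the start region in the SST table, since the tables share no Slc6a3 region. Maoa passed without SST IP replicate 1 (−0.57, adjusted p = 0.012). Sort, time and table cannot be told apart here, since the PV libraries were taken 60 min after saline and the SST time is not given.

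The 24 h table repeated the PV sort in other mice. Its titles carry an Iso number, which the fits took as a term, and all saline IP libraries are Iso2. The saline difference between fractions therefore rests on the Iso2 libraries, 3 in IP and 2 in UF. After AMPH, IP held 1 Iso1 and 3 Iso2 libraries, and UF held 3 Iso1 and 1 Iso2. Fraction and Iso number are thus unevenly mixed there, and the difference leans on IP library Iso1-1 and UF library Iso2-1. Of 8 members tested after saline (Drd5 did not pass the filter), Maob was called higher and Drd2 lower, beside 14.9% of all genes. Of 40 member regions 19 were tested, with 0 called higher and 4 lower, beside 19.1% of all regions. After AMPH all 9 were tested, with 0 higher and Drd1, Drd2 and Drd3 lower, beside 24.4% of genes, and 23 regions gave 1 higher and 4 lower, beside 27.1% of regions.

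Drd2 had 20.8, 14.7 and 27.0 CPM in saline IP and 30.0, 36.9, 40.2 and 73.7 CPM in UF at 24 h. The highest IP library lay under the lowest UF library (log2 −1.57 ± 0.29, adjusted p = 0.00011). After AMPH Drd2 had 28.1, 14.4, 17.3 and 20.2 CPM in IP and 39.7, 48.4, 44.6 and 54.4 CPM in UF, again apart (−1.19 ± 0.20, adjusted p = 5.1e-05), and without UF library Iso2-1 it gave −0.65 (adjusted p = 0.106). The region at 45.9 kb was lower in both, by −1.95 ± 0.58 (adjusted p = 0.011) and −1.62 ± 0.42 (adjusted p = 0.0054). The call after saline was lost with DESeq2 and without IP library Iso2-1 or Iso2-2, and that after AMPH without UF library Iso2-1 (−0.53, adjusted p = 0.57). The start region was called in neither (−1.02 ± 0.48 and −0.61 ± 0.34). With gene ends alone, Drd2 gave −0.91 (adjusted p = 0.189) and −0.70 (adjusted p = 0.111).

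Drd3 had 31.0, 21.7 and 25.3 CPM in saline IP and 43.7, 28.0, 41.5 and 36.6 CPM in UF, which overlap (log2 −0.58 ± 0.28, adjusted p = 0.17). After AMPH it had 29.8, 18.2, 29.2 and 16.1 CPM in IP and 44.1, 31.6, 46.9 and 36.4 CPM in UF, with all IP libraries lower (−0.65 ± 0.22, adjusted p = 0.026), a call lost under 5 other settings. Its region past the gene end had 5.37, 3.04 and 1.32 CPM in saline IP and 10.4, 14.3, 16.5 and 17.5 CPM in UF. That region was the one Drd3 site called in both treatments (−2.09 ± 0.49, adjusted p = 0.0014, and −1.48 ± 0.54, adjusted p = 0.042). After AMPH it lost its call without any one of the 3 Iso1 UF libraries or of IP libraries Iso1-1, Iso2-1 and Iso2-3, with log2 differences as small as −0.74.

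Drd1 was called lower after AMPH (−0.82 ± 0.27, adjusted p = 0.024), with 9.08, 19.3, 30.9 and 16 CPM in IP and 24.9, 23.5, 21.4 and 28.9 CPM in UF. The IP library at 30.9 CPM lay above all of UF. Without the Iso term the difference was −0.43 (adjusted p = 0.20) and without IP library Iso1-1 −0.45 (adjusted p = 0.35), and the call was also lost without IP library Iso2-3 (adjusted p = 0.051). After saline it was −0.61 ± 0.37, and the difference between treatments was −0.24 ± 0.39. Drd5 had 0 to 16 counts in saline libraries and 7 to 41 counts in AMPH libraries, and gave 0.03 ± 0.51 after AMPH. Drd4 gave −1.16 ± 0.57 and −0.79 ± 0.53, neither called.

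Slc18a2 had 5.58, 6.98 and 10.1 CPM in saline IP and 20.5, 10.7, 14.7 and 15.4 CPM in UF at 24 h. The IP libraries were all lower but the difference was not called (log2 −1.14 ± 0.46, adjusted p = 0.089), and after AMPH it was −0.82 ± 0.38 (adjusted p = 0.11). It was called after saline with all groups in one fit (−1.28, adjusted p = 0.022) and after AMPH without UF library Iso2-1 (−1.68, adjusted p = 0.025). Slc6a3 gave −0.46 ± 0.71 and 0.09 ± 0.48.

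Maob had 7.32, 11.1 and 16.9 CPM in saline IP and 0, 2.38, 3.51 and 1.23 CPM in UF at 24 h. All IP libraries lay above UF (log2 2.15 ± 0.68, adjusted p = 0.024), and 6 other settings lost the call. After AMPH it had 7.09, 13.4, 14.0 and 6.29 CPM in IP and 2.96, 2.37, 0.929 and 7.13 CPM in UF, where UF library Iso2-1 reached the IP range (1.06 ± 0.43, adjusted p = 0.07). It was called there without the Iso term (1.49), over the gene body alone (3.14) and without IP library Iso2-3 (1.25). The Maob region at chrX:16741911-16742110 had 25 counts over the saline IP libraries and 0 in saline UF, at least 8.07-fold higher when 3 counts over the group are taken as the floor.

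Maoa as a gene was not called at 24 h (−0.48 ± 0.22, adjusted p = 0.13, and −0.22 ± 0.15), except after saline with all groups in one fit (adjusted p = 0.0499), but 2 regions inside it had counts in IP libraries alone. At chrX:16643095-16643294, 23.5 kb from the start, the saline IP libraries had 23, 13 and 1 counts, the AMPH IP libraries 14, 66, 15 and 23, and all 8 UF libraries 0. With the floor of 3 counts over the group, IP was at least 11.9-fold higher after saline and at least 32.6-fold higher after AMPH. The other, 37.04 kb from the start, had 1, 2 and 1 counts in saline IP, 7, 25, 0 and 1 in AMPH IP and 0 in all 8 UF libraries, at least 9.11-fold higher after AMPH. Beside these Maoa and Maob values, the endothelial and mural markers ran from 331 to 419 CPM in saline IP and 72.3 to 106 CPM in UF, and from 282 to 435 CPM in AMPH IP and 73.8 to 105 CPM in UF. All 6 of them were called higher in both treatments, and none was at 0. Their part in the oxidase values was not tested. SPN markers ran from 441 to 522 CPM in saline IP and 568 to 677 CPM in UF, and from 456 to 493 and 581 to 687 CPM after AMPH.

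AMPH and saline were compared within each fraction and time, which asks whether the drug changed the openness of these genes. No member was called in any of the 4 comparisons. In PV IP at 60 min, 8 members and 24 regions were tested, with 0 called, beside 0% of all genes and 0% of all regions. In UF at 60 min, 9 members and 36 regions were tested, with 0 called, beside 0% and 0%. In PV IP at 24 h, 9 members and 16 regions gave 0 calls, beside 0% of genes and 0.0122% of regions (11 regions). In UF at 24 h, 7 members and 18 regions gave 0 calls, beside 0% of genes and 0.0527% of regions (34 regions). At an unadjusted p under 0.05, 1 member passed in PV IP at 60 min and 0 in the other 3, where over all genes 257, 606, 608 and 560 passed. DESeq2 called 0, 0, 0 and 1 genes of all.

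The member that passed unadjusted was Drd3. It had 25.2, 19.4, 29.2 and 20.7 CPM in saline IP and 31.0, 28.8, 31.0 and 42.6 CPM in AMPH IP at 60 min. The saline library at 29.2 CPM overlaps the AMPH range, and the highest AMPH library is the shallowest, with 46 counts in the gene. The log2 difference was 0.46 ± 0.20 (unadjusted p = 0.035, adjusted p = 1.00). Drd2 gave 0.29 ± 0.21 in PV IP (95% interval −0.13 to 0.71) and 0.08 ± 0.10 in UF (95% interval −0.13 to 0.28). Over the tested members the differences ran from −0.36 to 0.46 in PV IP and −0.13 to 0.22 in UF at 60 min, and from −0.37 to 0.53 and −0.38 to 0.49 at 24 h. Drd1 in UF at 24 h gave 0.49 ± 0.27 (unadjusted p = 0.075). All saline IP libraries at 24 h are Iso2, so the AMPH difference there rests on the Iso2 libraries.

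At an unadjusted p under 0.05 in edgeR's fit across all regions, 2 member regions passed. They were the Drd4 region at 0.72 kb in UF at 60 min (log2 −0.75 ± 0.35) and the Drd3 region at 39.9 kb in PV IP at 24 h (log2 −0.97 ± 0.38). Over all regions, 2.37% and 3.80% passed in IP and UF at 60 min and 4.16% and 3.80% at 24 h. The interaction, which asks whether AMPH changed PV IP and UF differently, called 0 of 9 members and 0 of their regions at 60 min and at 24 h, beside 0% of genes and 0% of regions at both times. At an unadjusted p under 0.05, 76 of all genes passed at 60 min and 658 at 24 h, and DESeq2 called 0 genes at either. For Drd2 the interaction was 0.22 ± 0.21 at 60 min and 0.05 ± 0.34 at 24 h. At 60 min the Drd3 region at 47.6 kb gave 1.74 ± 0.79 (unadjusted p = 0.0369) and the Drd4 region at 0.25 kb −1.34 ± 0.51 (unadjusted p = 0.0136), where 2.08% of all regions passed.

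**Figure D5:**
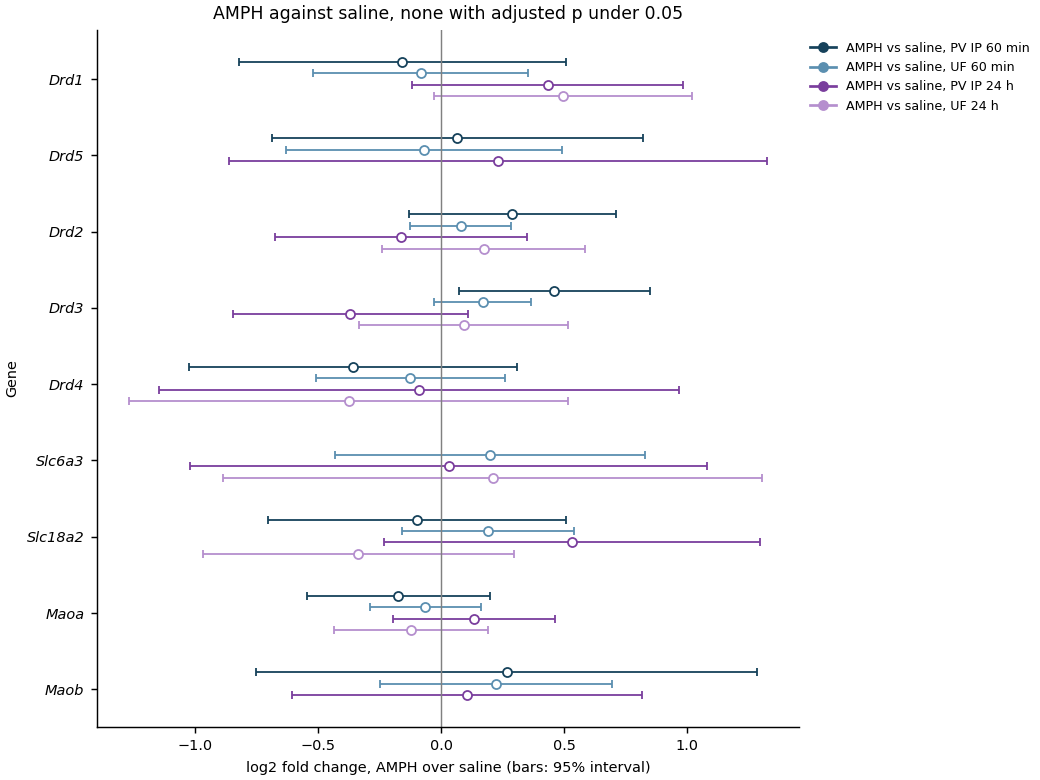
Log2 of AMPH over saline with its 95% interval for each tested member in PV IP and UF at 60 min and 24 h. No member was called, and Drd3 in PV IP at 60 min, at 0.46, is the one whose interval leaves out 0.

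A set of 3 lists places the members among other genes of the pathway, each given by its counts of calls and its median. These counts stand beside the shares of all genes called, which were 25.0% and 28.2% after saline and AMPH at 60 min, 58.3% in SST, 14.9% and 24.4% at 24 h and 22.0% between PV and SST. Of 18 genes of striatal dopamine signalling, such as the regulator of D2 signalling Rgs9 and the phosphatase inhibitor Ppp1r1b (DARPP-32), 2 were called higher and 7 lower in saline PV IP at 60 min, with a median log2 of −0.19 beside −0.01 over all genes. Rgs9 gave −1.19 ± 0.11, Ppp1r1b −1.04 ± 0.17 and the potassium channel gene Kcnj9 0.91 ± 0.16. In SST IP, where 58.3% of all genes were called, 10 of these 18 were called higher and 4 lower, with a median of 0.25, and the phosphodiesterase gene Pde1b gave 0.67 ± 0.09. At 24 h, 0 were higher and 8 lower after saline, and 3 and 10 after AMPH, with Rgs9 at −1.22 ± 0.18 and −1.25 ± 0.13. Between PV and SST, 1 was higher and 5 lower, led by Rgs9 at −1.58 ± 0.15. After AMPH at 60 min, 2 were called higher and 7 lower in IP.

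Of 15 genes of monoamine synthesis and clearance, 3 were called higher and 2 lower in saline PV IP at 60 min, with a median of 0.07. Gch1, which makes the cofactor of tyrosine hydroxylase, gave 1.29 ± 0.18 and Th, tyrosine hydroxylase itself, 1.26 ± 0.30 (adjusted p = 0.0074), while the serotonin transporter gene Slc6a4 gave −0.78 ± 0.23. After AMPH at 60 min, 4 were higher and 2 lower. In SST IP, 5 of these 15 were higher and 5 lower, a share near that of all genes, with the noradrenaline transporter gene Slc6a2 at 1.38 ± 0.18 and Th at 0.97 ± 0.24. At 24 h, 2 were higher and 1 lower after saline and 5 and 2 after AMPH, with Gch1 at 1.42 ± 0.27 after AMPH. Th was called after AMPH (1.55 ± 0.44) and not after saline (0.36 ± 0.57, adjusted p = 0.72). Between PV and SST, 2 were higher and 2 lower. A list of dopamine neuron markers summed to between 97.2 and 160 CPM over all libraries, with 1 of them, Foxa2, at 0 in UF after AMPH at 24 h.

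Of 11 genes of other receptors on the same cells, 1 was called higher and 4 lower in saline PV IP at 60 min, with a median of −0.47. The delta opioid receptor gene Oprd1 gave 1.36 ± 0.13, the kappa receptor gene Oprk1 −0.99 ± 0.30 and the muscarinic receptor gene Chrm1 −0.86 ± 0.26. After AMPH at 60 min, 1 was higher and 5 lower. In SST IP, 7 were higher and 0 lower, with a median of 0.51, among them Oprd1 at 0.95 ± 0.15, Oprk1 at 0.67 ± 0.15 and the cannabinoid receptor gene Cnr1 at 0.65 ± 0.11. At 24 h, 1 was higher and 2 lower after saline and 1 and 4 after AMPH, with the mu opioid receptor gene Oprm1 at −1.36 in both. Between PV and SST, 0 were higher and 5 lower, with a median of −0.73 and Oprk1 at −1.65 ± 0.32. Over all 3 lists, 0 genes were called for AMPH against saline or for the interaction.

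The genes whose log2 CPM followed a member most closely over the 37 libraries, centred within each table, were taken from up to 15817 genes. For Drd2 they were Car12, Ccdc88c and Pard3, with Pearson's r of 0.946, 0.928 and 0.923. For Drd3 they were Actn1, Kcnip3 and Ces1f, at 0.901, 0.882 and 0.881. Slc18a2 followed Cntnap3 at 0.857 and Gfra1 at 0.824, Maob followed Prrx1 at 0.853 and Adgrl4 at 0.831, and Drd5 followed 2610008E11Rik at 0.809. For Drd1, Drd4, Slc6a3 and Maoa the highest r was 0.758, 0.707, 0.746 and 0.723. The libraries share their sort, fraction and depth, and these values describe likeness only.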

How the data were processed

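ATAC-seq was done on nuclei of the mouse nucleus accumbens, in 37 libraries of 10 groups. The authors deposited raw read counts per 200 bp region on mm10, in 3 tables. Per the submitters' processing notes, the tools included the aligner Bowtie2 2.3.4.3 and the peak caller MACS2 2.1.2, with bedtools 2.25.0 and DESeq2 1.18.1 among others. How regions were pooled over libraries, and whether reads were shifted for the Tn5 insertion, are not given in the sources used here. Each table has its own set of regions, and a site outside that set was not measured there. All 37 columns matched a sample, and 0 were left over.

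Counts were summed per gene over regions overlapping its body or the 2 kb on either side (RefSeq genes of GRCm38.p6). The gene table used has no exons, so exon or intron is not given. Distances run from the start in RefSeq's promoter table to the middle of a region, and Maob, which has no entry there, is given by coordinates. Tests used edgeR 4.0.16 (R 4.3.3) on these sums and on the region counts, with TMM scaling, filterByExpr (minimum count 10, minimum total 15), a robust quasi-likelihood fit and a two-sided F test with Benjamini-Hochberg adjustment over all genes or all regions. The SE is the size of the log2 difference divided by the square root of F, and the 95% interval is that difference with a normal multiple of the SE. In the 24 h table, fits had a term for the title's Iso number, whose meaning the labels do not give. The step was tested on simulated counts before use. Alternatives were DESeq2 1.42.0, other size factors, no filter, all groups in one fit, other windows, a replicate block and leaving out each library.

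Per the labels each library is 1 mouse, so libraries were taken as biological replicates. Whether IP and UF libraries came in pairs from the same mice is not in the labels. In saline PV libraries at 60 min, same-numbered IP and UF libraries deviated together (r 0.281 to 0.745 for the 4 numbers), so the replicate block is a paired fit there, and it changed no gene call. Depth ran from 0.651 to 15.1 M counts per library. Floors from counts cover counting error only, whereas the intervals of log2 differences come from the SE of the quasi-likelihood fit.

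The members, gene lists and rule for named regions were chosen with earlier results of these data known. Named regions of a member are its most open one, the one nearest the start and the called one with the smallest adjusted p, and other regions named were chosen after their values were seen. Pathway genes named are up to 3 called genes with the largest difference per list.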

Additional observations from a re-analysis of the deposited data

Results flagged for a closer look

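Among 63 groups of 4 libraries checked for a member's CPM, 4 held a library far from the others, where chance gives about 1 in 20. Drd2 in UF after AMPH at 60 min had 47.8 CPM in replicate 2 and 58.6 to 59.6 CPM in the others. Drd3 in PV IP after AMPH at 60 min had 42.6 CPM in replicate 4, the shallowest library of that table, and 28.8 to 31.0 CPM in the others. Slc6a3 in saline PV IP at 60 min had 2.75 CPM in replicate 5 and 0.123 to 0.505 CPM in the others. Maoa in saline UF at 60 min had 38.5 CPM in replicate 4 and 33.2 to 33.5 CPM in the others.

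The difference between PV and SST nuclei in log2 IP over UF passed its test for 3 of 9 members, beside 22.0% of all genes. It was −1.59 for Drd2, −1.49 for Drd3 and −1.39 for Drd5, which lost its call under 6 of 19 other settings.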

How the results depend on the processing

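Over 52 gene results and 782 values under other settings, 735 kept their side of the threshold, 27 lost the call, 20 gained one and 0 reversed a call. Among values not called, 18 changed sign. Over 49 called region results and 605 values, 524 kept the call and 81 lost it. With regions within 1 kb of the gene ends alone, the members called were 0 against 2 for saline and 1 against 2 for AMPH at 60 min (Drd4 gained, Drd2 lost), and 0 against 2 and 1 against 3 at 24 h. By construction this window leaves out the sites inside Drd2, and Drd3 had no value with it.

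At 24 h after saline, DESeq2 called 1 gene and 2 regions, against 2 and 4, and all groups in one fit called 4 genes and 8 regions. With all groups in one fit, 9 regions were called after AMPH, against 5. The cause was not tested. The replicate block called 1 gene at 24 h after saline, against 2, and 3 regions after AMPH, against 5. With the block Maob at 24 h after saline gave 1.956 and lost its call, and Slc6a3 was called in SST (0.66) and between PV and SST (−2.06). At 24 h the Drd2 region past the gene end lost its call with the block in both treatments, as did that at 49.3 kb after AMPH. It called 19 regions against 17 in saline PV mice at 60 min, with the Drd1 region at 0.51 kb and the Drd3 region at 38.1 kb gained, and 12 against 11 in SST, with the Drd3 region at −6.6 kb gained. In the comparisons of IP with UF it changed no other member's call. Only in saline PV libraries at 60 min did every same-numbered pair have an r over 0.1. The range over same-numbered pairs was 0.087 to 0.620 after AMPH at 60 min and −0.166 to 0.057 in SST. After AMPH at 60 min the mean r was 0.301 for same-numbered pairs and −0.100 for other pairs, so pairing cannot be left aside there.

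Leaving out each library gave 2 to 4 genes called for saline and 2 to 3 for AMPH at 60 min, 2 to 6 in SST, 1 to 2 and 2 to 3 at 24 h, and 2 to 6 between PV and SST. For regions it gave 12 to 20, 13 to 18, 8 to 12, 1 to 7 and 3 to 7. Leaving out a library was not run for regions of AMPH against saline, and all groups in one fit not for SST. AMPH against saline called 0 members under all settings run. Depth limits Drd5, Slc6a3 and Maob most, with 0 to 41 counts per library for Drd5 at 24 h.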
